A study of Mus musculus with 6 samples.

Results

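Glycolysis and hypoxia response genes are 34 genes that move glucose and lactate across the cell membrane, break glucose down to pyruvate and lactate, or belong to the response to low oxygen. They were chosen by gene symbol, by a rule that names no measured value but was set with earlier results of these data known, from the 17213 genes of the deposited count table of mouse dental follicle cells. Of the 34 symbols, 33 matched directly, and Pkm was found under its older symbol Pkm2. The dental follicle is the connective tissue around the unerupted tooth, and the cells were tdTomato-positive cells sorted from mandibular molars at postnatal day 8. The labels describe them as PTHrP+ dental follicle cells. All 6 libraries therefore share the tdTomato reporter and a tamoxifen pulse, which the series description places at day 3 and the individual sample entries at day 8. The groups were 3 libraries labelled Het (Pth1r(+/-)) and 3 labelled KO (Pth1r(-/-)), where Pth1r is the receptor of PTH and PTHrP and the series text calls both genotypes conditional. For the Cre line, the deleted exons and any pooling of animals, the sources used here give nothing. No label ties a library to an animal of its own, so each p-value measures the spread between these libraries, part of which may be technical.

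Glycolysis turns glucose into pyruvate in the cytosol, and lactate dehydrogenase can then reduce pyruvate to lactate, which leaves the cell through monocarboxylate transporters. Many steps are carried by isozymes, enzymes from different genes with the same reaction. When oxygen is low, prolyl hydroxylases no longer mark the alpha subunits of hypoxia-inducible factor (HIF) for destruction, and HIF then raises transcription of most glycolytic enzymes and of genes of mitochondrial turnover, pH control and glucose uptake. In bone-forming cells and cartilage, which make matrix where vessels are few, this programme is known to be active, and osteoblasts are known for high aerobic glycolysis.

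HIF binds DNA at the core letters ACGTG or GCGTG. RefSeq promoters (GRCm38.p6, the assembly of mm10; 250 bases before to 50 after a start site) were found for 30 of the 34 genes, 43 promoters in all. Both strands were searched, and ACGTG also lies inside the palindrome CACGTG, a site of other factors. ACGTG was present in 25 of the 43 promoters (58.1%), from 22 genes, against 19.6% of the 32851 promoters of all genes. GCGTG was present in 55.8% against 32.4%, and CACGTG in 14.0% against 7.15%. These promoters were rich in CG, with a median of 21 CG dinucleotides against 7 over all promoters. Among promoters with at least 21, ACGTG was present in 16 of 22 of these genes' promoters (72.7%) and in 29.0% of all 8148. The letter match describes the sequence only, and the 34 genes were picked in part as HIF targets, so their share is no independent finding. Some promoters of the same gene overlap, as for Aldoa and Eno1, so the 43 are not separate units. The promoters of Ldha and Ldhb are shown because these isozymes differ in ACGTG, that of Pgk1 as an abundant enzyme with the motif, and that of Ankrd37 as a named HIF target that was barely detected. Each runs 5' to 3' on the gene's strand, with ACGTG or its reverse complement CACGT in capitals.
Ldha: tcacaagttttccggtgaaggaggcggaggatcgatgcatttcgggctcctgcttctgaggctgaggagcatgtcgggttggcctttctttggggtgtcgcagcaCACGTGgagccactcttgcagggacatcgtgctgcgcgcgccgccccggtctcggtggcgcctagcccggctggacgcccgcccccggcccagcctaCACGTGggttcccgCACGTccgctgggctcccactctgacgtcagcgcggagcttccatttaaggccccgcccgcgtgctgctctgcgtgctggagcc
Ldhb: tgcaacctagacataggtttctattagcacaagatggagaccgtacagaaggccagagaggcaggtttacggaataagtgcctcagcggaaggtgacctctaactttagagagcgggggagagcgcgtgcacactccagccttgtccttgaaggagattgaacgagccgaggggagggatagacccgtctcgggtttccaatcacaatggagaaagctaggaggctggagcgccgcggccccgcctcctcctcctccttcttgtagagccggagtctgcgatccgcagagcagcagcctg
Pgk1: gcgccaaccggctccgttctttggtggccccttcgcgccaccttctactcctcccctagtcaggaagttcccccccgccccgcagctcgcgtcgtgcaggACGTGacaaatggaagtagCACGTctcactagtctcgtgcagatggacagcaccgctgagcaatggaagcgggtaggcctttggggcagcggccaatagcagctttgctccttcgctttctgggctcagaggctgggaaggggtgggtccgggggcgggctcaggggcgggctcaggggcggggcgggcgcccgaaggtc
Ankrd37: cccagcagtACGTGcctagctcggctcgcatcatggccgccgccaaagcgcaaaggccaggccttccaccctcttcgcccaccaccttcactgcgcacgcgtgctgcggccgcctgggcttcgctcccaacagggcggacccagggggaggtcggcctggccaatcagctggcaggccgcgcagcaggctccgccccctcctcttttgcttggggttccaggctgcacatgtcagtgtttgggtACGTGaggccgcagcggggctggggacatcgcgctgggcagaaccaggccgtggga
The Ldha promoter (chr7:46845554-46845853, plus strand) held the letters at 3 places, the Pgk1 promoter (chrX:106186850-106187149, plus strand) at 2 and the Ankrd37 promoter (chr8:45999801-46000100, minus strand) at 2. The Ldhb promoter (chr6:142507908-142508207, minus strand) held no ACGTG, and neither did a second Ldha promoter in the table. The other core, GCGTG, is not capitalised: it was found at 2 places in the Ldha promoter, 1 in that of Ldhb, 2 in that of Ankrd37 and 0 in that of Pgk1, so both lactate dehydrogenase promoters held a HIF core.

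Total counts per library ran from 34019925 to 66147200. Levels between libraries are given as CPM, counts scaled to library size (TMM), and levels between genes as FPKM, the authors' fragments scaled to library size and transcript length. Groups of 3 values are replicates 0, 1 and 2 in that order. The targeted gene went against the labels: Pth1r (mm10 chromosome 9, 110722085 to 110747145) was at 371, 286 and 346 CPM in the Het-labelled libraries and at 961, 608 and 472 CPM in the KO-labelled libraries. Counts summed over a whole gene cannot tell whether its deleted stretch was still read. All differences below are therefore those of libraries labelled KO against libraries labelled Het. The library labelled Het replicate 2 stood apart, alone at one end of the principal component that held 38.6% of the variance. Follicle and mesenchyme markers summed to 21109 to 64998 CPM over the 6 libraries, and dental epithelium markers, led by Ambn, to 5188 to 10839 CPM, so enamel epithelium transcripts were present in every library. Osteoblast markers summed to 4437 to 11583 CPM in the Het-labelled and 11761 to 20072 CPM in the KO-labelled libraries, with 6 of 6 fitted higher in the latter. Endothelial markers summed to 9.78 to 15.1 and 5.25 to 8.49 CPM (4 of 6 fitted lower), and macrophage and leukocyte markers to 20.8 to 93.5 and 28.1 to 152 CPM (10 of 10 fitted higher). No marker of these lists passed the test, and none was at 0 in every library. Their part in the values below was not tested. In such sorted pools, fewer cells of a type and less RNA per cell cannot be told apart.

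Glycolytic enzymes and both lactate dehydrogenase subunits had the highest levels among the 34 genes. Per length, pyruvate kinase Pkm led with a mean of 452 FPKM, followed by Ldha at 372, Ldhb at 329, Gapdh at 306, Aldoa at 262, Pgam1 at 202 and Tpi1 at 199 FPKM. These were the 7 genes with a mean of at least 100 FPKM. Neighbours in this order were not separated: Ldha spanned 257 to 492 FPKM over the libraries and Ldhb 251 to 449 FPKM. Another 23 genes lay between 2 and 100 FPKM, with Eno1 at 84.5 and Hk2 at 2.77 FPKM at their ends. The Eno1 value leaves out Gm5506, a gene that shares much of its sequence and is described below. Gm5506 had means of 39.0 FPKM in the Het-labelled and 51.0 FPKM in the KO-labelled libraries. The lowest 4 were Aldoc at 1.77, Ankrd37 at 1.19, Car9 at 1.18 and Epas1 at 0.51 FPKM. Car9 is a membrane carbonic anhydrase and Ankrd37 an ankyrin repeat protein, both widely used as readouts of HIF activity.

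**Figure D1:**
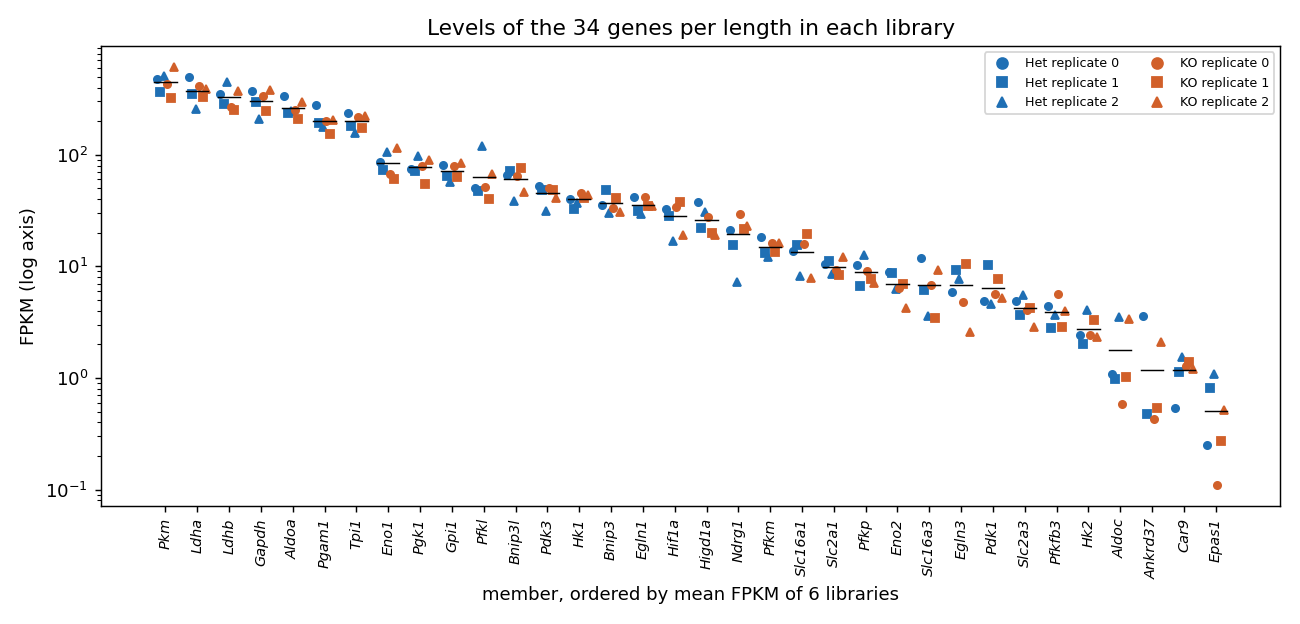
FPKM on a log axis for each of the 34 genes, ordered by mean; points are libraries (blue Het-labelled, orange KO-labelled; circle, square and triangle for replicates 0, 1 and 2), bars are means of 6 libraries, and the value of 0 for Ankrd37 in Het replicate 2 is not drawn. Pkm leads at a mean of 452 FPKM, and Epas1 is lowest at 0.51 FPKM.

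In the libraries labelled KO against those labelled Het, none of the 34 genes passed the test. All 34 passed the filter on low counts, and edgeR's quasi-likelihood test called 0 of them at an adjusted p of 0.05, where it called 0% of the 14632 genes tested. Their smallest adjusted p was 0.976. At an unadjusted p under 0.05 there were 0 members, against 4.29% of all genes. DESeq2 also called 0 members, against 0.519% of all genes, with 1 member (Ndrg1) at an unadjusted p under 0.05, against 6.06%. In limma-voom with quality weights the same gene alone was under 0.05, against 6.53%. Fitted values were higher for 14 members and lower for 20 (41.2% higher, against 49.0% of all genes), and the median log2 fold change was -0.06, against -0.01 over all genes. The median size of the log2 difference, without sign, was 0.18 for the members and 0.26 for all genes tested. It was 0.21 for the 11407 genes whose mean log2 CPM was 2 or more, a level not all members reached. The groups did not overlap for 3 members (8.82%), Ldhb, Hif1a and Ndrg1, against 10.7% of all genes. Of these, Hif1a and Ndrg1 were higher in the KO-labelled libraries, against 5.84% of all genes, and Ldhb was lower, against 4.83%.

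These tests do not show that the genes were equal between the groups. The 95% interval of the log2 fold change lay between -1 and 1, that is within a 2-fold difference either way, for 22 of the 34 members. For the other 12 the interval reached at least a 2-fold difference. It was narrowest for Bnip3l (-0.27 to 0.50) and widest for Ankrd37 (-3.98 to 3.09). Leaving out 1 library changed the sign of the fitted difference of 18 members and kept that of 16.

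**Figure D2:**
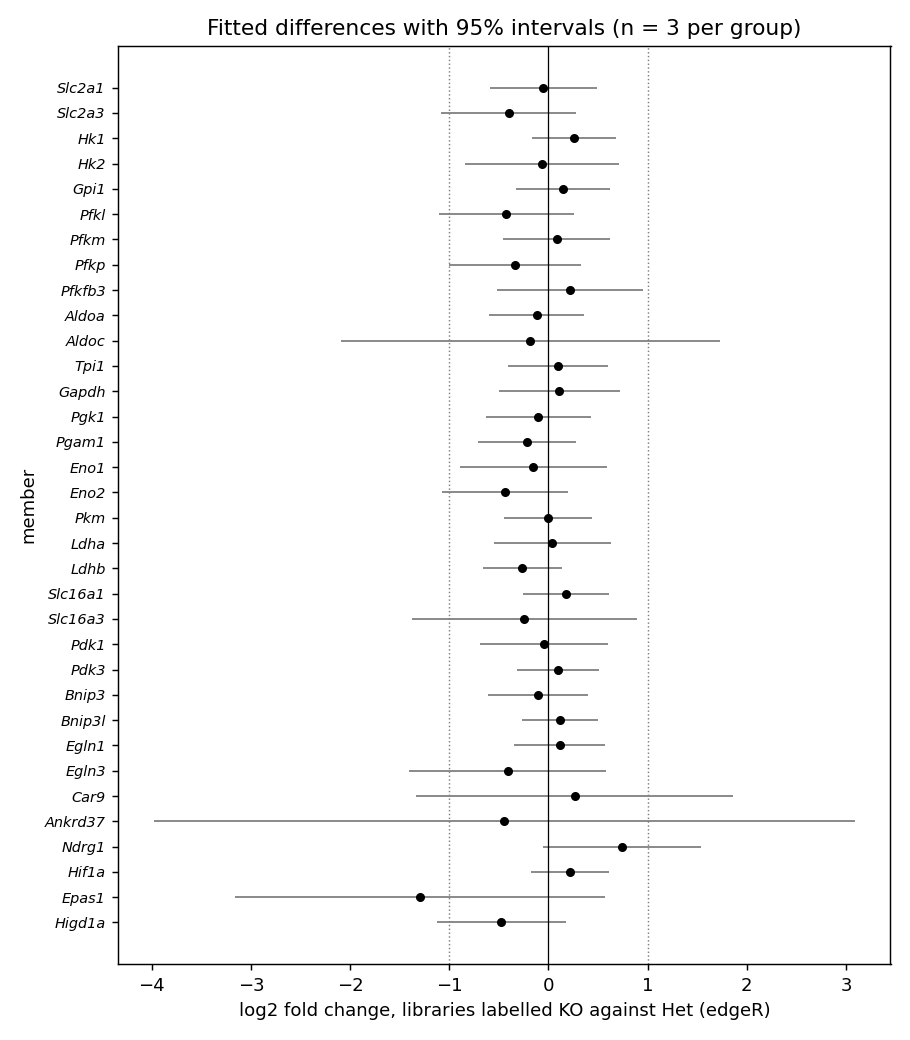
Log2 fold change of each of the 34 genes (points) with its 95% interval (bars), libraries labelled KO against Het, 3 per group, from edgeR's quasi-likelihood fit; dotted lines mark a 2-fold difference. All 34 intervals include 0, and the point farthest to the right is Ndrg1 at 0.74.

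Glucose enters through facilitative transporters. The transporter of most tissues, Slc2a1 (GLUT1), was at 25.8, 26.0 and 19.3 CPM in the Het-labelled and 22.9, 19.96 and 25.7 CPM in the KO-labelled libraries, 23.7 ± 3.81 and 22.9 ± 2.89 CPM (SD, n = 3 each). These values overlapped throughout. The high-affinity transporter gene Slc2a3 ranged from 14.1 to 27.7 CPM, with the highest value in Het replicate 2. Per length, Slc2a1 made up 60.6% to 80.9% of the FPKM of the pair.

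Hexokinases trap glucose by phosphorylation. The housekeeping form Hk1 (chromosome 10, 62268855 to 62379908) was at 163, 138 and 131 CPM in the Het-labelled and 191, 177 and 149 CPM in the KO-labelled libraries, with a log2 fold change of 0.26 (95% interval -0.16 to 0.68). KO replicate 2 lay inside the Het-labelled range. The inducible form Hk2 was at 13.3, 11.7 and 23.7 CPM against 13.6, 19.5 and 13.5 CPM, highest in Het replicate 2. Hk1 held 90.1% to 94.9% of the FPKM of the pair. Gpi1, the isomerase of the next step, was at 236, 183 and 157 CPM against 233, 185 and 220 CPM, with overlapping groups.

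Phosphofructokinase commits sugar to glycolysis and has liver (Pfkl), muscle (Pfkm) and platelet (Pfkp) forms. Pfkl (chromosome 10, 77986947 to 78010083) was at 186, 184 and 383 CPM in the Het-labelled and 194, 158 and 209 CPM in the KO-labelled libraries. A single library was high, Het replicate 2, and the log2 fold change of -0.42 became 0.017 without it. Pfkm went the other way in that library, at 51.0, 41.5 and 30.0 CPM against 47.1, 42.0 and 40.5 CPM. Pfkp ranged from 25.9 to 57.8 CPM, highest in Het replicate 2 as well. Pfkl exceeded both others per length in all 6 libraries, with 73.6% to 90.9% of the FPKM it shared with Pfkm. Pfkfb3, the bifunctional enzyme that makes the allosteric activator of phosphofructokinase, was at 22.5, 13.9 and 21.8 CPM against 29.4, 14.6 and 23.4 CPM. Its low libraries were replicate 1 of both groups.

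Aldolase splits the activated sugar. Aldoa was at 461, 344 and 296 CPM in the Het-labelled and 355, 310.1 and 348 CPM in the KO-labelled libraries. The brain form Aldoc was at 1.72, 1.61 and 5.28 CPM against 0.936, 1.71 and 4.95 CPM. Aldoc was highest in the replicate 2 library of both groups, and its log2 fold change moved from -0.18 to 0.60 without Het replicate 2 and to -1.12 without KO replicate 2. Aldoa held at least 98.6% of the FPKM of the pair in every library. Tpi1, which interconverts the triose phosphates, was at 356, 292 and 212 CPM against 335, 282 and 304 CPM.

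Gapdh, often used as a reference gene, varied within the Het-labelled libraries from 432 and 344 CPM to 213 CPM in replicate 2, and was at 398, 294 and 373 CPM in the KO-labelled libraries. Its highest library was 2.02 times its lowest, more than the 1.34 times of Pkm. Pgk1, whose enzyme carries out an ATP-forming step of glycolysis, was at 130, 138 and 182 CPM against 141, 106 and 172 CPM, highest in the replicate 2 library of each group. The mutase gene Pgam1 was at 481, 346 and 332 CPM against 349.7, 272 and 375 CPM. Pkm was at 1141, 987 and 974 CPM against 1049.9, 873 and 1173 CPM, with means of 1034 ± 92.8 and 1032 ± 151 CPM (SD, n = 3 each). Counts per gene symbol do not separate the M1 and M2 splice forms of Pkm.

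Enolase depended on the count table. Eno1, the enolase of most tissues, had 620, 307 and 334 counts in the Het-labelled and 487, 429 and 530 in the KO-labelled libraries, which was 6.71% of the estimated counts for it in the second deposited table. Of the 34 members, 32 had the same total in both tables within 0.1%, and Pfkp had 95.9%. In the GENCODE transcripts, 70.5% of the windows of 50 bases along Eno1 also occur in Eno1b, the RefSeq name of Gm5506. In estimated counts Eno1 stood at 8976, 4600 and 5108 against 6983, 6513 and 8172. Gm5506 itself had 41, 2942 and 3436 counts in the Het-labelled and 21, 4681 and 7831 in the KO-labelled libraries. Replicate 0 of both groups thus held under 0.5% of the summed estimated counts of the 2 genes in Gm5506, against 39.0% to 48.9% in the other 4 libraries. The log2 fold change was -0.15 for Eno1 counts, -0.14 for its estimated counts and 0.019 for Eno1 and Gm5506 summed, none past the threshold (edgeR, adjusted p of 0.981, 0.979 and 0.999). The neuronal enolase gene Eno2 was at 23.1, 23.0 and 17.4 CPM against 17.0, 18.4 and 11.5 CPM, a log2 fold change of -0.44 (95% interval -1.08 to 0.19).

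**Figure D3:**
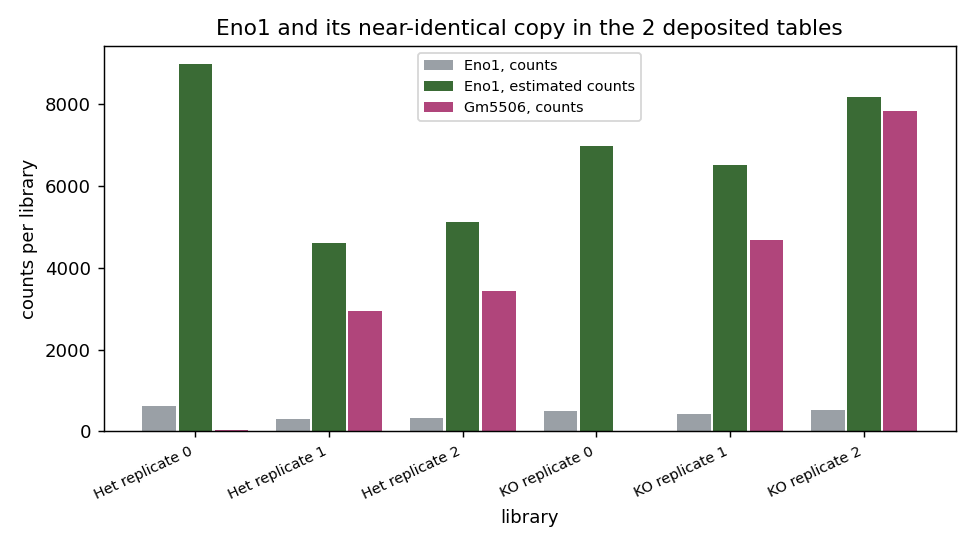
Bars give counts of Eno1 in the whole-number table (grey), its estimated counts (green) and counts of Gm5506 (magenta) in each library, on an axis from 0. Eno1 has 307 to 620 counts in the first table and 4600 to 8976 in the second, and Gm5506 is near 0 in replicate 0 of both groups.

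Other members also share sequence with annotated copies, and how reads were divided among copies is not stated. The share of 50-base windows found in the transcripts of other genes was 82.5% for Gapdh, 72.2% for Eno1, 68.0% for Pgk1, 62.4% for Bnip3 and 41.5% for Pgam1. Unlike Eno1, the other 4 had the same totals in both deposited tables. No shared window was found for Slc2a3, Hk2, Slc16a1 and Egln1, among others.

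Lactate dehydrogenase decides the exchange of pyruvate and lactate. Ldha (chromosome 7, 46841475 to 46855627) was at 756, 558 and 376 CPM in the Het-labelled and 649.5, 532 and 554 CPM in the KO-labelled libraries. Ldhb (chromosome 6, 142490249 to 142507957), whose subunit favours pyruvate formation, was at 417, 375 and 445 CPM against 327, 330.1 and 373 CPM. The groups did not overlap for Ldhb, by 375.0 against 373.3 CPM, and its log2 fold change was -0.26 (standard error 0.17; edgeR, adjusted p = 0.976). Per length the subunits were near parity, with Ldha at 58.5%, 54.9% and 36.4% of their FPKM in the Het-labelled libraries. In the KO-labelled libraries its share was 60.9%, 56.8% and 51.3%. Ldha was below Ldhb only in Het replicate 2.

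Lactate leaves through monocarboxylate transporters. Slc16a1 (MCT1) was at 60.6, 62.1 and 60.6 CPM in the Het-labelled and 69.2, 79.7 and 58.5 CPM in the KO-labelled libraries. The exporter gene of glycolytic tissues, Slc16a3 (MCT4), was at 26.8, 13.7 and 6.83 CPM against 15.7, 7.84 and 16.5 CPM. That is a 3.92-fold range over the libraries, with Het replicate 0 highest, and the log2 fold change of -0.24 became 0.37 without it. Pyruvate dehydrogenase kinases hold pyruvate back from the mitochondria. Pdk1 was at 25.3, 50.9 and 33.8 CPM against 29.2, 38.9 and 38.2 CPM, and Pdk3 at 101, 84.4 and 78.3 CPM against 95.8, 86.2 and 100.02 CPM. Pdk3 made up most of the FPKM of the pair, with Pdk1 at 8.42% to 17.7%.

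Of the oxygen-regulated HIF subunits, Hif1a was by far the more abundant. Hif1a (chromosome 12, 73901375 to 73947530) was at 159.9, 126 and 144 CPM in the Het-labelled and 164, 169 and 166 CPM in the KO-labelled libraries. The groups did not overlap, and the log2 fold change was 0.22 (standard error 0.17; 95% interval -0.17 to 0.61; edgeR, adjusted p = 0.976). Epas1 (HIF2 alpha; chromosome 17, 86753700 to 86833410), known for its expression in endothelium, was at 1.40, 4.26 and 6.38 CPM against 0.624, 1.45 and 2.82 CPM. Its groups overlapped, and its log2 fold change was -1.30 (standard error 0.82, 95% interval -3.17 to 0.57). With 1 library left out it ran from -1.95, without KO replicate 2, to -0.80, without Het replicate 2, its highest library. The summed endothelial markers given above were also at lower values in all 3 KO-labelled libraries, and their part in the Epas1 values was not tested. Hif1a held 94.0% to 99.7% of the FPKM of the pair.

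The prolyl hydroxylases that mark the HIF subunits are themselves HIF targets. Egln1 (PHD2) was at 132, 92.1 and 110.2 CPM in the Het-labelled and 133, 104 and 124 CPM in the KO-labelled libraries. Egln3 (PHD3) was at 15.0, 22.2 and 22.2 CPM against 12.1, 25.2 and 7.21 CPM. The KO-labelled libraries thus held both the highest and the lowest Egln3 value, and the log2 fold change was -0.41, or -1.03 with KO replicate 1 left out and -0.08 with KO replicate 2 left out.

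Among the other HIF targets, Ndrg1, a gene of growth arrest and stress, had the largest difference of the members with a mean of 2 FPKM or more. Ndrg1 (chromosome 15, 66929318 to 66969640) was at 63.2, 46.5 and 22.0 CPM in the Het-labelled and 87.5, 64.9 and 67.9 CPM in the KO-labelled libraries. The groups did not overlap, by 63.2 against 64.9 CPM. The log2 fold change was 0.74 (standard error 0.35; 95% interval -0.05 to 1.54), with an unadjusted p of 0.0638 and an adjusted p of 0.976 in edgeR's quasi-likelihood test. Without Het replicate 2, its lowest library, it was 0.43. Higd1a, a mitochondrial inner membrane protein, was at 62.3, 34.1 and 67.4 CPM against 45.4, 31.5 and 41.0 CPM, with overlapping groups and a log2 fold change of -0.48 (95% interval -1.13 to 0.17).

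Bnip3 and Bnip3l encode receptors for the removal of mitochondria. Bnip3 was at 59.4, 75.7 and 81.1 CPM in the Het-labelled and 54.7, 64.4 and 81.9 CPM in the KO-labelled libraries. Bnip3l was at 216, 224 and 207 CPM against 209, 241 and 250.1 CPM, the smallest range of all members, with the highest library 1.21 times the lowest. Car9 was at 1.01, 2.17 and 2.84 CPM against 2.45, 2.69 and 2.07 CPM. Ankrd37 had 167, 14 and 0 counts against 20, 27 and 79 counts. A count of 0 in Het replicate 2 allows up to 0.0843 CPM, from 3 counts and counting error only, and reads without molecular identifiers are not independent molecules. The sign for Ankrd37 was not settled: its log2 fold change was -0.44, but 1.92 once its highest library, Het replicate 0, was left out and 0.52 in the fit blocked by replicate.

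Het replicate 2 was the highest library for 10 members and the lowest for 13, so it was at one end for 67.6% of the members. It was also at one end for 58.2% of all genes tested and for 60.3% of those whose mean log2 CPM was 2 or more. Isozymes of some steps lay at opposite ends in it: Slc2a3, Hk2, Pfkl, Pfkp, Aldoc and Ldhb had their highest values there, and Slc2a1, Hk1, Pfkm, Aldoa and Ldha their lowest. The related genes of enolase, lactate export, pyruvate dehydrogenase kinase, the Bnip3 pair, the prolyl hydroxylases and the HIF subunits did not do so. The highest library was less than 2 times the lowest for 52.9% of the members and for 44.4% of all genes tested. For the genes with a mean log2 CPM of 2 or more, a level not all members reached, the share was 56.0%.

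**Figure D4:**
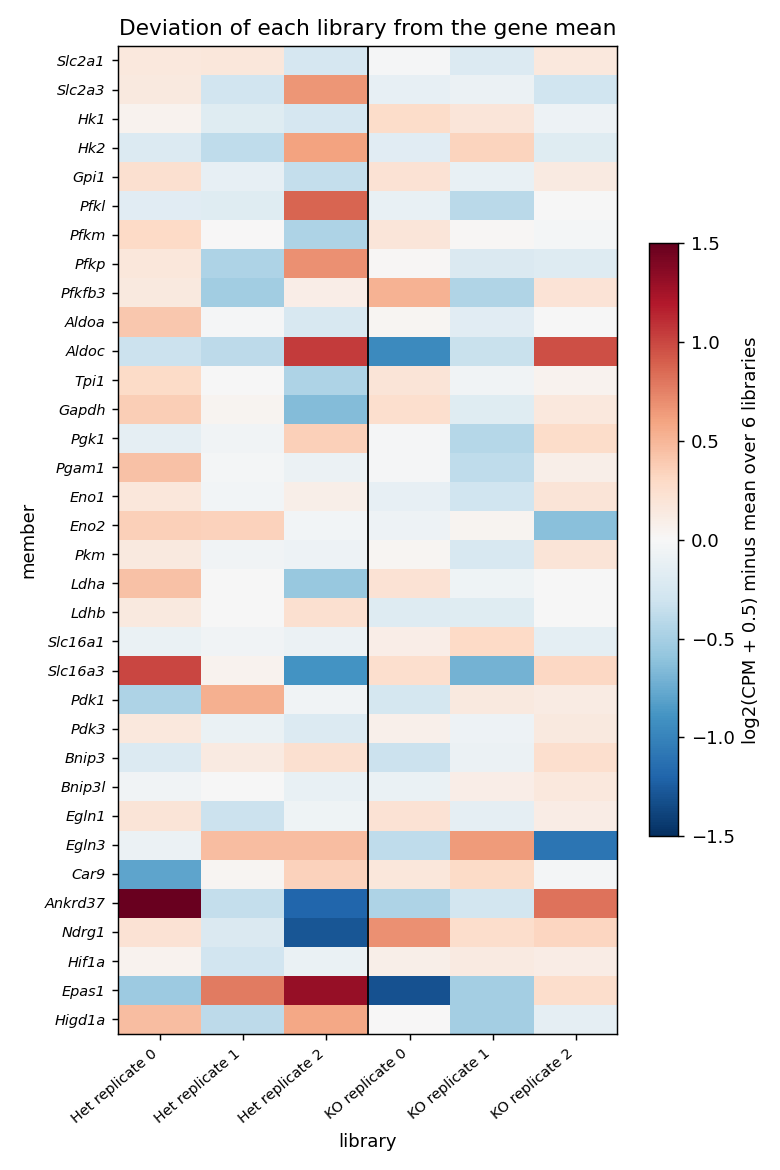
Colour gives log2(CPM + 0.5) of each gene in each library minus the gene's mean over 6 libraries (red above, blue below; capped at 1.5), with Het-labelled libraries left and KO-labelled libraries right of the line. The column of Het replicate 2 alternates between red (Pfkl, Hk2, Slc2a3) and blue (Gapdh, Ldha, Ndrg1).

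The log2 ratio of 12 pairs of related genes, taken from FPKM in each library, asked whether the makeup of isozymes differed between the groups. The ratio was higher in the KO-labelled libraries for 8 pairs and lower for 4, and the groups overlapped for all 12. The smallest p in the exact two-sided permutation test was 0.2, for Hif1a/Epas1, where 3 against 3 libraries cannot go below 0.1, and all adjusted values over the 12 pairs were 0.9. The Hif1a/Epas1 log2 ratio was 5.36 ± 1.55 in the Het-labelled and 6.86 ± 1.54 in the KO-labelled libraries (SD, n = 3 each). That of Ldha/Ldhb was 0.49, 0.29 and -0.81 in the Het-labelled and 0.64, 0.39 and 0.07 in the KO-labelled libraries. The difference of 0.38 (0.35 from counts) became -0.021 in FPKM without Het replicate 2, with KO replicate 2, the low library of the other group, still in. FPKM in that library carries the shift described below. From counts without Het replicate 2, the fitted log2 fold changes were -0.18 for Ldha and -0.20 for Ldhb, so the negative sign is that of FPKM only. Het replicate 2 had the lowest ratio for 5 pairs and the highest for 3.

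**Figure D5:**
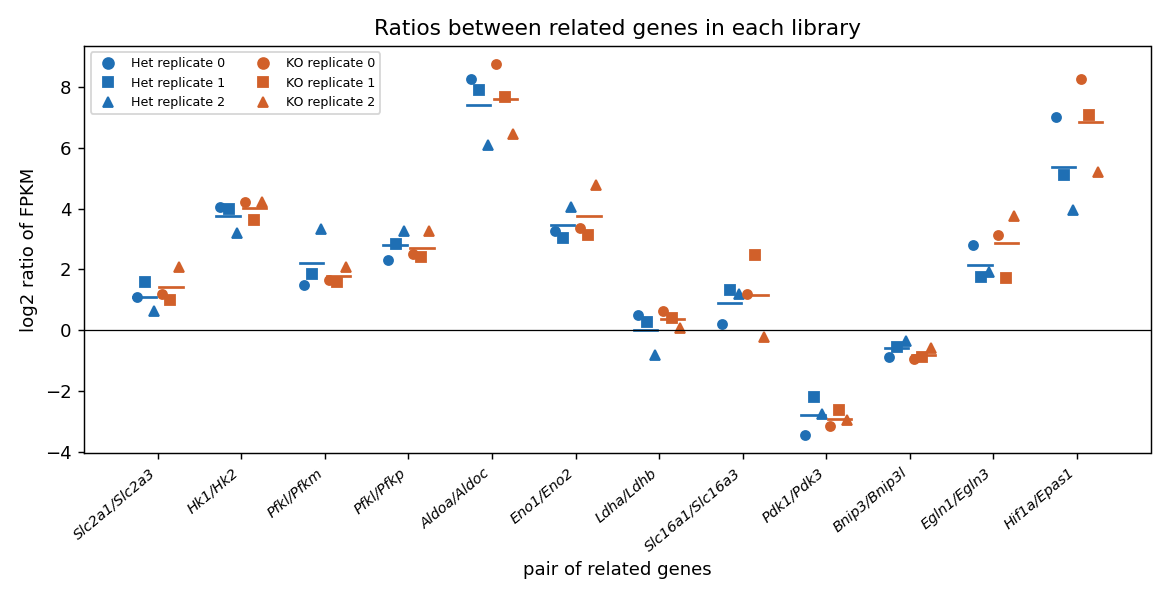
Log2 ratio of FPKM of the first gene to the second, for 12 pairs; points are libraries (blue Het-labelled, orange KO-labelled; circle, square and triangle for replicates 0, 1 and 2) and bars are group means. Groups overlap for all pairs, and the triangle of Het replicate 2 is the lowest point for Ldha/Ldhb at -0.81.

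FPKM and CPM did not rank the libraries alike. The FPKM of a gene was divided by its CPM in each library. In the replicate 2 libraries this quotient was outside the range of the other 4, on the same side, for 30 members. It was above for 16 and below for 14. Ankrd37, counted as above, had no quotient in Het replicate 2, so only KO replicate 2 was judged for it. Of the 13479 genes with a quotient in all 6 libraries, 85.9% were outside in this way. The same share was 28.9% for the replicate 0 libraries and 53.1% for replicate 1. For Hif1a the quotient in the replicate 2 libraries was 0.54 times that of the others, so its FPKM of 16.9 and 19.1 there stood against 28.2 to 37.3 elsewhere, while its CPM of 144 and 166 lay within the range of the others. For Pkm it was 1.32 times. Both groups hold 1 replicate 2 library, and shares between isozymes in these libraries carry this shift.

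The other genes of glycolysis and pyruvate use, and of the HIF pathway, gave the same count. Of 33 such glycolysis and pyruvate genes 30 were tested, and edgeR called 0, with 8 fitted higher and 22 lower (median log2 fold change -0.09). Of 32 HIF pathway genes 31 were tested, and edgeR called 0, with 14 higher and 17 lower (median -0.09). Over all genes tested, 49.0% were fitted higher and the median was -0.01. The unadjusted p in edgeR was under 0.05 for 5 of the 30 and 0 of the 31, against 4.29% of all genes. Among the 5 was Hkdc1, which passed the filter only through the KO-labelled libraries. The glycogen synthase gene Gys1 was at 40.2, 33.4 and 27.4 CPM in the Het-labelled and 50.4, 56.8 and 51.4 CPM in the KO-labelled libraries, a log2 fold change of 0.65 (standard error 0.21; edgeR, adjusted p = 0.976). Pfkfb2 was at 10.004, 12.6 and 13.3 CPM against 7.73, 6.08 and 4.79 CPM, and Slc2a4, the insulin-responsive glucose transporter, at 6.90, 6.85 and 8.68 CPM against 19.3, 9.63 and 12.3 CPM. Neither overlapped between the groups.

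The hexokinase relatives Hkdc1 and Hk3 were nearly silent in the Het-labelled libraries. Hkdc1 had 0, 0 and 1 counts there and 32, 86 and 46 in the KO-labelled libraries, so it passed the filter only through the latter. The depth-adjusted ratio of summed counts was 126, with an exact 95% interval of 22.3 to 4997 that covers counting error only and not the spread between libraries. Its adjusted p was 0.654 in edgeR and 0.0378 in DESeq2. Hk3, the hexokinase of leukocytes, had 0, 0 and 0 counts against 8, 83 and 209. With the Het-labelled group set to 3 counts in all, the ratio was at least 76.7. That bound covers counting error only and not the spread between libraries. It was 33.3 without KO replicate 2 and 41.0 without Het replicate 0, the deepest of the Het-labelled libraries. KO replicate 0 alone was at 0.131 CPM, where 3 counts in a single Het-labelled library stood for 0.0482, 0.0835 or 0.0843 CPM. The edgeR filter removed Hk3, and DESeq2 gave an adjusted p of 0.00322. These were the only other pathway genes that DESeq2 called, and Hk3, outside the naming rule, was chosen after its values were seen. Summed macrophage and leukocyte markers were at 28.1, 98.1 and 152 CPM in the KO-labelled libraries, in the same order as Hk3. They were at 20.8, 93.5 and 46.9 CPM in the Het-labelled libraries, where Hk3 was at 0. Summed neutrophil markers were at 87.6, 120 and 288 CPM in the KO-labelled and 4.63, 465 and 306 CPM in the Het-labelled libraries. Neutrophil markers were thus highest in Het replicates 1 and 2, where Hk3 was at 0. The part of either cell type in the Hk3 values was not tested.

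Among HIF pathway genes the smallest unadjusted p belonged to Cited2, which competes with HIF for a coactivator, at 35.3, 37.0 and 17.2 CPM against 39.1, 47.7 and 57.8 CPM. Stc2, a secreted glycoprotein, was at 14.1, 7.27 and 9.92 CPM against 7.70, 3.89 and 6.47 CPM. The groups did not overlap for Cited2 and overlapped for Stc2. Both had an adjusted p of 0.976 in edgeR's quasi-likelihood test. Vegfa, the vascular growth factor under HIF control, was at 66.2, 72.8 and 58.2 CPM against 77.5, 79.1 and 82.6 CPM. These groups did not overlap either, and its log2 fold change was 0.28 (standard error 0.18; edgeR, adjusted p = 0.976).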

How the data were processed

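RNA was measured in 6 libraries of sorted tdTomato-positive cells, 3 labelled Het and 3 labelled KO by their titles. Per the submitters' processing notes the genome was mm10. The same notes list HTSeq, Cufflinks, Cuffdiff, DESeq2, FastQC, Bowtie2 2.2.1 and TopHat2 2.0.13, with no role for any of them. Annotation and strand setting: not given in the sources used here. Per the labels' protocols, cDNA came from a SMART-Seq kit for low RNA input, followed by Nextera XT library preparation. The authors deposited whole-number counts, a second table of estimated counts (rounded here before testing) and FPKM values, which are per length. Rescaled and regularised log tables were not used.

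Counts were tested in R 4.3.3 with edgeR 4.0.16 (quasi-likelihood, TMM, default filter, two-sided, Benjamini-Hochberg over 14632 genes, threshold 0.05). Intervals of log2 fold changes used the standard error derived from the F statistic. DESeq2 1.42.0, limma 3.58.1 (limma-voom, and limma-trend on log2(FPKM + 1) or log2(FPKM + 0.1), which understates changes of low genes), RLE scaling, other filters, the estimated counts, a threshold of 0.1, the replicate number as a block and each library left out were alternatives. Scripts were tested on simulated data. Named genes were those with the highest FPKM of each role, the smallest p, no overlap, or a sign or 1.5-fold change on leaving out a library; Slc2a3 and Pfkp met none and are given by range. Some other pathway genes that met the rule are not reported here. Members and lists were chosen with earlier results of these data known. DESeq2 without Het replicate 2 and the sum of Eno1 and Gm5506 were chosen after seeing the data. Positions are from GENCODE M21 (mm10 assembly) and promoters from RefSeq GRCm38.p6.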

Additional observations from a re-analysis of the deposited data

How the results depend on the processing

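Members called numbered 0 under every alternative run, over those that each alternative's filter kept. Over all genes, edgeR called 0 (628 at an unadjusted p under 0.05). DESeq2 called 87, DESeq2 without Het replicate 2 called 175, and 1 gene was called under each of the stricter filter, limma-voom, limma-trend on log2(FPKM + 1) and on log2(FPKM + 0.1), limma-trend with no minimum FPKM, and a threshold of 0.1; leaving out 1 library gave 0 to 1. Of the other pathway genes DESeq2 called 2, with or without Het replicate 2. Members with higher fitted values numbered 14, and 14 to 19 with 1 library left out; the isozyme ratios higher in the KO-labelled libraries numbered 8, and 6 to 9. No cause of these changes was tested.

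Signs changed as follows (log2 fold change). In limma-voom, Hk2 was 0.12, Pfkm -0.00453, Pgk1 0.0185 and Ldha -0.0147. In DESeq2 without Het replicate 2, Hk2 was 0.32, Pfkl 0.0155, Pfkm -0.10, Aldoc 0.60, Tpi1 -0.0768, Gapdh -0.12, Pgk1 0.0587 and Ldha -0.18. Eno1 with Gm5506 was 0.0194. Ankrd37 was 0.00225 in limma-trend with no minimum FPKM and 0.52 with the replicate block. Leaving out 1 library at a time gave ranges across 0 for Slc2a1 -0.18 to 0.0371, Hk2 -0.26 to 0.32, Pfkl -0.60 to 0.017, Pfkm -0.0926 to 0.27, Pfkfb3 -0.0122 to 0.45, Aldoa -0.25 to 0.0701, Aldoc -1.12 to 0.60, Tpi1 -0.0745 to 0.28, Gapdh -0.12 to 0.34. The same held for Pgk1 -0.28 to 0.0625, Pkm -0.10 to 0.11, Ldha -0.18 to 0.30, Slc16a3 -0.60 to 0.37, Pdk1 -0.26 to 0.26, Bnip3 -0.27 to 0.0344, Egln1 -0.00545 to 0.25, Car9 -0.0597 to 0.59, Ankrd37 -1.41 to 1.92. Differences in log2 ratio, all from FPKM, ranged across 0 for Slc2a1/Slc2a3 -0.0126 to 0.56, Pfkl/Pfkm -0.80 to 0.12, Pfkl/Pfkp -0.35 to 0.16, Aldoa/Aldoc -0.46 to 0.79. They also did for Eno1/Eno2 -0.22 to 0.61, Ldha/Ldhb -0.0207 to 0.63, Slc16a1/Slc16a3 -0.42 to 0.94, Pdk1/Pdk3 -0.43 to 0.18.

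The replicate numbers are shared between the groups, and the main fit did not take same-numbered libraries as pairs. Their deviations correlated over 14632 genes by 0.17, 0.07 and 0.07, and each library correlated best with its own number. The low share of Gm5506 in replicate 0 and the shift of FPKM against CPM in replicate 2 also went by replicate number. Whether same-numbered libraries are pairs was not settled. With the replicate block 0 genes, 0 members and 0 other pathway genes were called and 15 members had higher fitted values. Among the members, Ankrd37, Epas1, Car9 and Aldoc had the lowest total counts, at 307, 741, 664 and 774 over all libraries. Their log2 fold changes also had the largest standard errors of the members. The part of sequencing depth in these standard errors was not tested.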
